A study of Homo sapiens with 9 samples.

Results

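Hairpin sh1, a short hairpin RNA against BBOX1, was compared with a scrambled control hairpin in MDA-MB-468, a human cell line established from a triple-negative breast cancer. The comparison used 6 of the 9 libraries of the series, the 3 titled sh1 and the 3 titled control, chosen by their titles. Another 3 libraries, made with a second BBOX1 hairpin titled sh6, entered only the estimate of the spread and the side-by-side values given below. Cells of every group, controls included, had been infected with pLKO.1 lentivirus in the presence of polybrene and kept in a selection drug, so no group is untreated. Hairpins were delivered to a dividing culture of cells, and the labels do not say how long after infection RNA was taken. Polyadenylated RNA was read in pairs of 100 bases. The labels speak of triplicates and do not say that they were separate infections, so every p-value here reflects only how these libraries differ among themselves, a spread that may be technical.

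BBOX1 encodes gamma-butyrobetaine hydroxylase, an iron- and 2-oxoglutarate-dependent dioxygenase that makes carnitine in the last step of its synthesis. Carnitine carries long-chain fatty acids into mitochondria for oxidation. A short hairpin RNA is cut in the cell to a guide strand that pairs with its target mRNA, and the pairing leads to cleavage of that mRNA, while shorter pairing through the seed of the guide, its bases 2 to 8, can lower other transcripts. The comparison asks which transcripts differ when BBOX1 has been lowered with sh1.

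The target of sh1 stated in the protocol is shown because every value below depends on what this hairpin pairs with. In both lines the capitals mark the stretch that pairs with, or is, bases 2 to 8 of the guide, and the guide was written as the reverse complement of the target.
sh1 target: cctctacctttgtGGACTTTa
sh1 guide: tAAAGTCCacaaaggtagagg
All 21 bases matched BBOX1 in 4 annotated transcripts and no other gene of GENCODE release 29. It falls within the coding part of exon 7 (of 9 in BBOX1-201), at chr11:27119767-27119787 on the plus strand (GRCh38, matched here; the authors used hg19). Among protein-coding transcripts of the genes tested below, the nearest other matches were at 18 of 21 bases. They lay in the 3′ untranslated regions of CDK5, a neuronal cyclin-dependent kinase, and NMNAT2, an enzyme of NAD synthesis. Near matches in other transcripts were not examined. CDK5 had a log2 change of -0.15 (limma, adjusted p = 0.0597), and NMNAT2 was higher, with a log2 change of 0.52 (limma, adjusted p = 1.5e-05).

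BBOX1 was lower in every sh1 library than in every control library. Its normalised read count was 2703, 2785 and 2359.8 in controls 1 to 3 and 324, 346 and 328 in sh1 libraries 1 to 3. The lowest control was therefore far above the highest sh1 library, and the sh1 mean was 12.7% of the control mean. BBOX1 fell by 2.76 on the log2 scale of the deposited values (SE 0.0654, limma adjusted p = 3.7e-25), a 7.87-fold difference in mean normalised count. With 3 libraries a side, the exact permutation test (two-sided) gave p = 0.1 and can go no lower.

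A gene was tested if its mean over the 9 libraries lay at least 1 above the floor of the deposited scale, a normalised count of 16.2, and called at a limma adjusted p under 0.05. Of 13165 genes tested, 7760 were called (58.9%), 3812 higher with sh1 (29.0%) and 3948 lower (30.0%). Most calls were small: 5219 (67.3%) were under 1.5-fold, and the median size of a called change was 0.36 on the log2 scale. By the ratio of mean normalised counts, 2541 called genes differed by at least 1.5-fold (19.3% of those tested), 1212 higher (9.21%) and 1329 lower (10.1%). On the deposited scale, which compresses low genes, the same threshold left 1640. At least 4-fold, 54 were higher and 61 lower. In 8438 genes (64.1%) the 3 sh1 libraries lay wholly outside the range of the 3 controls. The median change of all genes was 0.00. When library totals replaced the deposited scaling, that median moved to 0.11, and 5314 were called higher and 2856 lower (65.0% of calls higher, against 49.1%). Recovered totals were 16710945 to 19716797 reads in the controls and 15725934 to 16211788 with sh1.

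**Figure D1:**
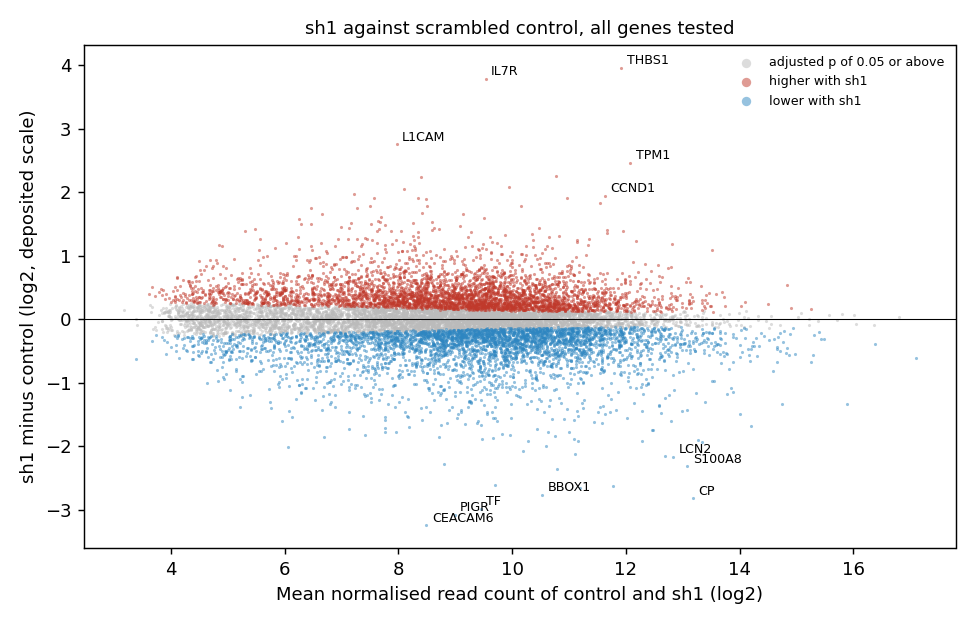
Each point is 1 of the 13165 genes tested, with the mean normalised read count of the control and sh1 libraries (log2) on the horizontal axis and sh1 minus control on the deposited log2 scale on the vertical axis. Red points were called higher, blue points lower and grey points not called. THBS1 and IL7R stand highest and CEACAM6 lowest, and BBOX1 lies at -2.76.

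The markers of the labelled cell type were present. All 13 epithelial and basal markers were tested, and their summed normalised count ran from 178356 to 194384 in the controls and from 180538 to 189038 with sh1. EGFR, the growth factor receptor, stood at 55160.0 ± 1145 in the controls and 58770.0 ± 1178 with sh1 (± SD, n = 3, as for all means here). Of the receptors whose lack defines triple-negative cancer, the progesterone receptor PGR was at 0 in all 6 libraries, while reads of ESR1 and ERBB2 were present. The oestrogen receptor ESR1 had 219, 253 and 211 in the controls and 246, 255 and 226 with sh1 (limma, adjusted p = 0.464), and the receptor tyrosine kinase ERBB2 went from 1091 ± 22.2 to 753 ± 9.06. Of 13 leucocyte markers 7 were at 0 in all 6 libraries, CD3D and TYROBP among them, and the list summed to 272 to 333 in the controls and 288 to 327 with sh1. Of 10 fibroblast markers 3 had reads enough to be tested, with sums of 398 to 523 and 349 to 422. Of 9 endothelial markers 3 were tested, with sums of 442 to 490 and 348 to 405.

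Among the largest rises were secreted and matrix proteins. THBS1 encodes thrombospondin 1, a matrix glycoprotein that binds cell-surface receptors and can activate latent TGF-beta. Its normalised count was 359.9, 385 and 500.5 in the controls and 7146, 7228 and 7654 with sh1. No control came near any sh1 library, and the mean rose 17.7-fold (limma, adjusted p = 9.5e-28). TNC, the matrix protein tenascin C, was at 560.5, 479.7 and 659 in the controls and 2874, 2858 and 3083 with sh1, a 5.19-fold rise (limma, adjusted p = 2.1e-22). The groups were again apart, with little spread within sh1. CTGF, a matricellular growth factor induced by the coactivator YAP, had 329, 275 and 413 in the controls and 1528, 1595 and 1743 with sh1, a 4.78-fold rise. COL5A2, a chain of fibrillar collagen V, rose 6.67-fold, from 49.5 ± 3.64 to 329.9 ± 16.1. DKK1, a secreted antagonist of Wnt signalling, rose 8.55-fold, from 31.2 ± 2.22 to 267 ± 19.2. Both genes had few reads in every control, and no control overlapped an sh1 library.

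Receptors and adhesion molecules formed a second group. IL7R, the interleukin 7 receptor of lymphoid cells, had 40.3, 52.4 and 68.6 in the controls and 1472, 1378 and 1435 with sh1. The rise was 26.6-fold, the largest ratio among these 15. Of the leucocyte markers, CD68 fell (from 211 ± 15.9 to 77.6 ± 11.6) and CSF1R rose (from 86.6 ± 14.7 to 212 ± 23.5), T-cell CD3D was at 0 in all 6 libraries, and the part of such cells in the rise was not tested. L1CAM, a neural adhesion molecule, had 26.9, 29.7 and 26.4 in the controls and 459, 466 and 495 with sh1. Libraries did not overlap and the mean rose 17.1-fold (limma, adjusted p = 1.2e-20). NPR3, the clearance receptor of natriuretic peptides, rose 6.54-fold, from 72.8 ± 10.3 to 476 ± 12.3. KCTD12, an auxiliary subunit of GABA-B receptors, rose 7.22-fold, from 82.3 ± 11.3 to 594 ± 13.1.

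Markers of the 293T cells used to package the virus, several of them neuronal, also moved. Of 10 such markers 4 were tested and 3 were called higher: the intermediate filament INA (from 52.1 ± 6.34 to 228 ± 20.3), the transcription factor WT1 (from 289 ± 10.0 to 432 ± 24.8) and the RNA-binding protein LIN28B (from 21.7 ± 1.18 to 41.6 ± 4.25). Over all genes tested 29.0% were called higher, and 4 tested markers are too few to set against that share. The 10 together summed to 437 to 461 in the controls, 764 to 812 with sh1 and 1009 to 1131 with sh6. SALL1, SALL3, NEFL, NEFM and CRYM were at 0 in all 6 libraries. With sh6, where this sum was highest, L1CAM lay near its control mean, as given below. How far this list bears on L1CAM was not tested.

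Cytoskeletal, cell-cycle and enzyme genes made up the rest of the 15 largest rises. TPM1, a tropomyosin that coats actin filaments, had 1181, 1210.3 and 1458 in the controls and 7242, 7255 and 7535 with sh1, 5.72-fold higher. CCND1, cyclin D1, which activates CDK4 and CDK6 in G1, had 1229, 1215 and 1383 and 5289, 4789 and 5184, 3.99-fold higher (limma, adjusted p = 4.3e-23). For both genes every sh1 library stood well above every control. FSCN1, which bundles actin in filopodia, rose 5.24-fold, from 104 ± 16.9 to 544 ± 17.3. CPA4, a secreted carboxypeptidase, rose 3.96-fold, and LPGAT1, a lysophospholipid acyltransferase, 3.70-fold. P3H2, a collagen prolyl 3-hydroxylase and like BBOX1 a 2-oxoglutarate-dependent dioxygenase, rose 4.97-fold, from 119 ± 19.4 to 594 ± 13.1.

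**Figure D2:**
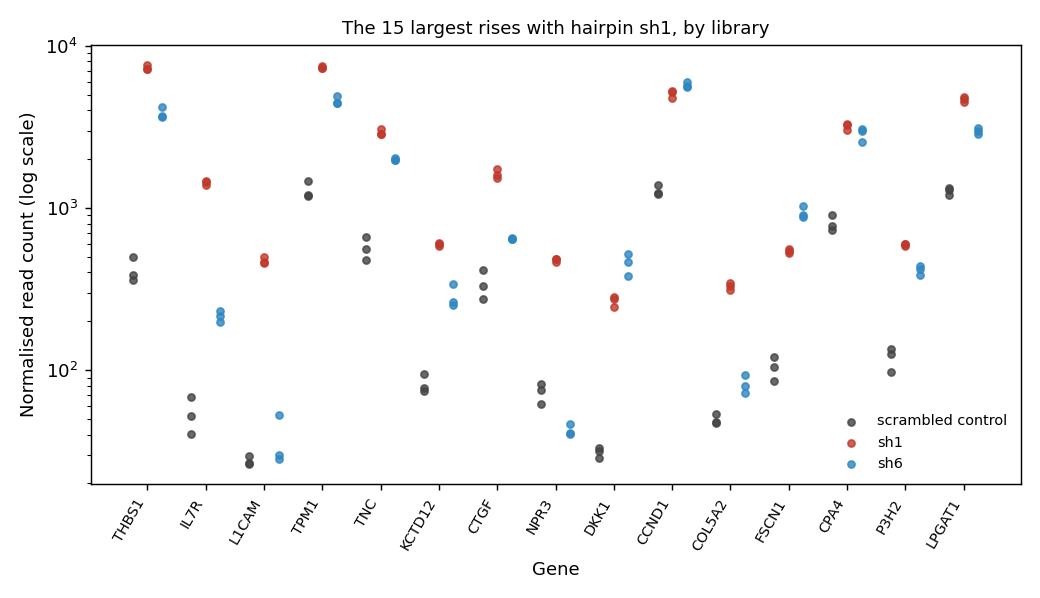
Normalised read count (log scale) of the 15 largest rises, 1 point per library, for scrambled control (grey), sh1 (red) and sh6 (blue). The 3 sh1 libraries lie above all 3 controls for every gene, which the choice of genes required. For L1CAM and NPR3 the sh6 libraries lie near the controls, and for DKK1 and FSCN1 above sh1.

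The largest falls were led by secreted and surface proteins of mucosal epithelium. CEACAM6, a membrane-anchored adhesion molecule, had 655, 732 and 691 in the controls and 34.9, 25.1 and 24.8 with sh1. It fell 24.5-fold (limma, adjusted p = 3.0e-23). PIGR, the receptor that carries polymeric immunoglobulins across epithelium, had 961, 1023 and 876 and 66.7, 67.3 and 59.6, 14.8-fold lower. TF, the iron carrier transferrin, had 1354, 1283 and 1209 and 95.4, 109.5 and 130.1, 11.5-fold lower. In each of these genes the controls and the sh1 libraries were far apart. CP, the copper-carrying ferroxidase ceruloplasmin, fell 7.26-fold, with 16979, 17841 and 13857 in the controls against 2366, 2142 and 2195 with sh1. SERPINA3, an acute-phase protease inhibitor, fell 6.91-fold, and CRISP3, a cysteine-rich secretory protein, 6.54-fold, from 6049 ± 296 to 925 ± 9.60.

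LCN2, lipocalin 2, which binds the iron carriers of bacteria, had 11682, 12419.5 and 11832 in the controls and 2586, 2791 and 2491 with sh1, 4.57-fold lower (limma, adjusted p = 3.8e-24). S100A8, a subunit of the antimicrobial calprotectin, had 13848, 15512 and 14084 and 2763, 3074 and 2750.4, 5.06-fold lower. Control and sh1 libraries of both genes were widely separated, with little spread within sh1. VNN2, a surface-anchored pantetheinase, fell 7.71-fold. The retinoid-responsive genes RARRES3, a phospholipase, and RARRES1, a membrane carboxypeptidase inhibitor, fell 5.58-fold and 4.54-fold.

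Genes of vesicle acidification and fusion, ATP6V0E1 and VAMP3, were also among the 15 largest falls. ATP6V0E1 encodes a subunit of the membrane sector of the vacuolar proton pump and had 3648, 3678 and 3589 in the controls and 771, 777 and 803 with sh1. VAMP3, the SNARE protein cellubrevin of recycling endosomes, had 1874, 1976 and 1945 and 397, 417 and 418. They were 4.64-fold and 4.70-fold lower, and the 3 sh1 libraries of each lay close together. With sh6 their means were 2841 ± 56.8 and 1671 ± 115. Neither annotated 3′ untranslated region holds the seed site of the sh1 guide as defined above, GGACTTT. The VAMP3 region does hold the overlapping word GACTTTA, target bases 15 to 21, and the ATP6V0E1 region does not. Other words of the target also occur in the VAMP3 region. The part of such pairing in the fall was not tested.

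**Figure D3:**
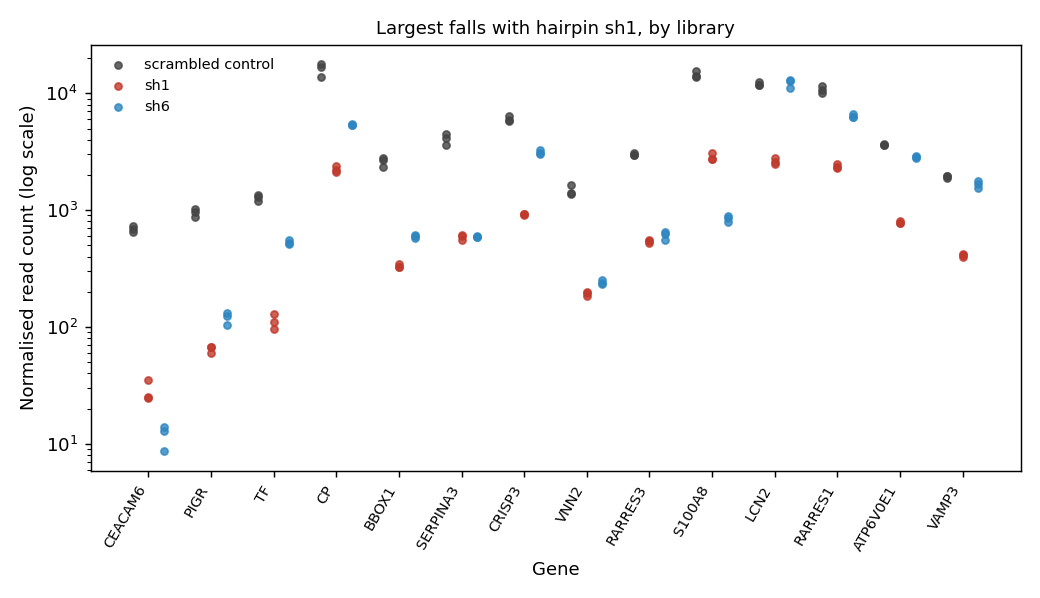
Normalised read count (log scale) of 14 of the 15 largest falls, 1 point per library, for scrambled control (grey), sh1 (red) and sh6 (blue). All sh1 libraries lie below all controls, as the choice of genes required. For LCN2 the sh6 libraries lie at the control level, for ATP6V0E1 and VAMP3 just below it, and for CEACAM6 and S100A8 below sh1.

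The hairpins shared the 3 control libraries, so their values are set side by side and the difference between them was tested directly. Across all genes tested, 7861 (59.7%) differed between sh6 and sh1, so a difference between the hairpins was common. Of the 30 genes with the largest changes under sh1, 29 differed between the hairpins, all but SERPINA3, which stood at 591 ± 29.0 with sh1 and 591 ± 12.2 with sh6. These 30 were chosen for extreme values in the sh1 libraries, which also enter this difference. Their count therefore cannot be compared with the share over all genes. IL7R had 1428 ± 46.9 with sh1 and 215 ± 18.0 with sh6 (limma, log2 difference -2.43, adjusted p = 1.5e-20). L1CAM had 473 ± 19.1 with sh1 and 37.2 ± 13.9 with sh6, the latter near the control mean of 27.7 ± 1.80. THBS1 had 3858 ± 299.7 with sh6, between control and sh1. BBOX1 itself was at 601 ± 19.0 with sh6, above its sh1 level (limma, log2 difference 0.75, adjusted p = 2.7e-11). CCND1 and CPA4 differed least among the rises, CCND1 with 5731 ± 196 against 5087 ± 264 (limma, adjusted p = 0.0106).

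The mucosal secretory list moved furthest of the 38 gene lists that are not cell type markers. It holds 48 acute-phase, complement, iron-binding and antimicrobial genes of surface epithelium, of which 36 were tested. Of these, 0 were called higher and 35 lower, each by at least 1.5-fold, with a median log2 change of -1.44, beside 30.0% called lower and a median of 0.00 over all genes tested. Complement genes were among them: C3, the central component, fell from 24360.0 ± 1491 to 8593 ± 92.1, and CFB, the factor B of the alternative pathway, from 7952 ± 133 to 2053 ± 70.1. SLPI and PI3, inhibitors of neutrophil elastase, fell 3.79-fold and 2.83-fold, SLPI from 15643 ± 537 to 4129.6 ± 261. The surface mucins MUC1 and MUC20 fell 2.52-fold and 4.93-fold. SAA4 was tested and not called (39.4 ± 7.97 against 35.3 ± 1.29). In bulk RNA, fewer cells making a transcript and less of it in each cell cannot be told apart. The list was assembled with these changes known, and reads of C4A and C4B, of SAA1 and SAA2, and of S100A7 and its copies may be hard to assign. Counts of the lists that follow are to be read beside 29.0% called higher and 30.0% lower over all genes tested. With library totals, 5314 of the 13165 genes tested were called higher and 2856 lower.

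**Figure D4:**
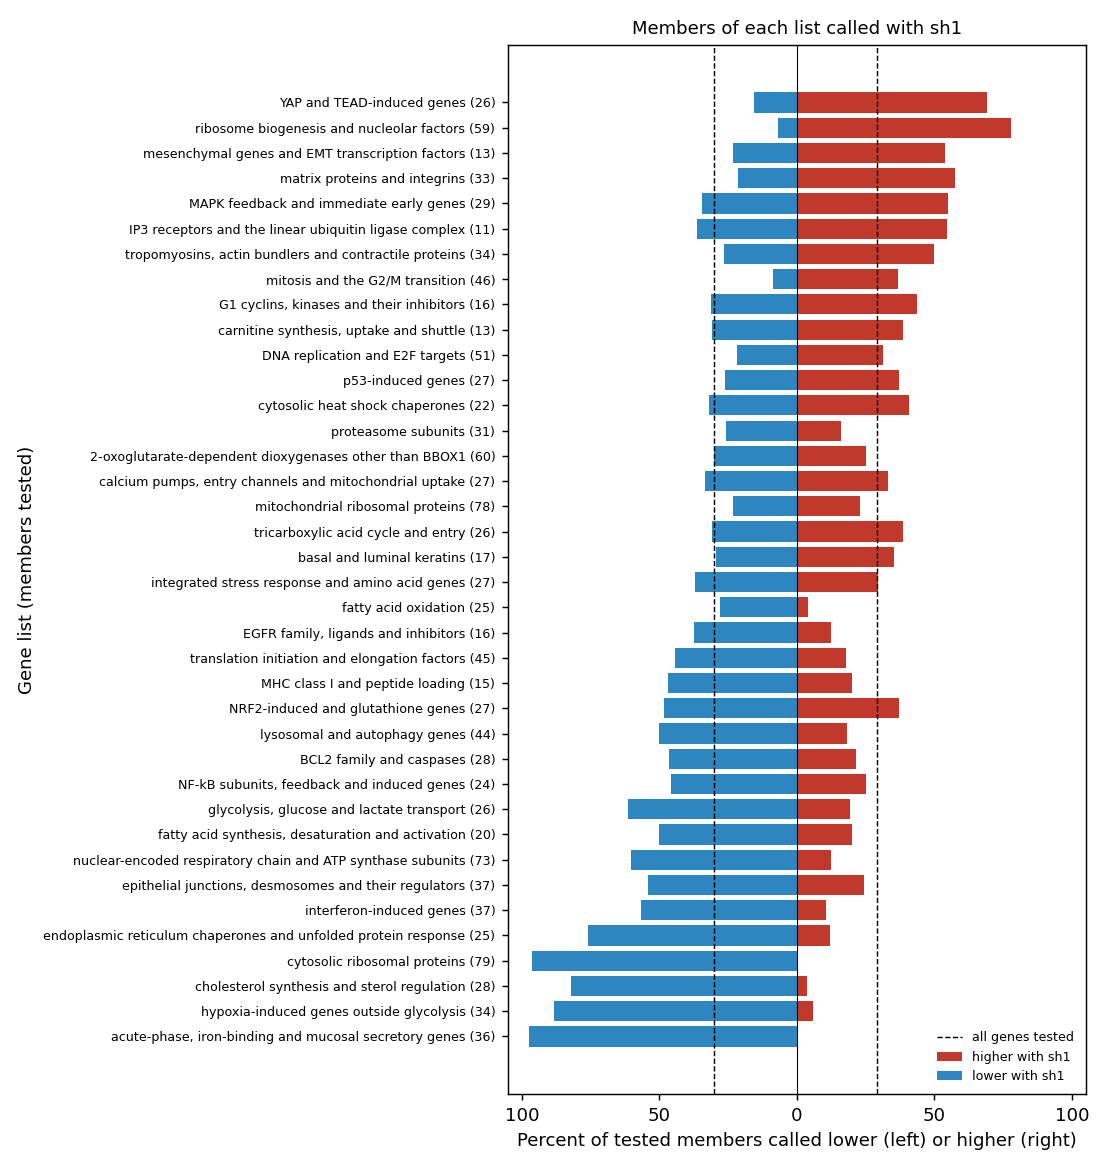
Percent of the tested members of each of 38 gene lists that were called lower (left, blue) or higher (right, red) with sh1, ordered by the list median, with the number of members tested in parentheses. Dashed lines mark the shares over all genes tested, 30.0% lower and 29.0% higher. The secretory and ribosomal protein lists reach furthest left and ribosome biogenesis furthest right.

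Genes induced by hypoxia were mostly lower. HIF, the transcription factor that raises them, is itself held down by prolyl hydroxylases of the same dioxygenase family as BBOX1. Of 36 listed, 34 were tested, 2 were called higher and 30 lower, with a median log2 change of -0.60. LOX, which cross-links collagen, had 1720.0, 1617 and 1422 in the controls and 393, 395 and 424 with sh1. NDRG1, a stress-responsive growth suppressor, had 4596, 4814 and 3611 and 1466, 1469.9 and 1945. The groups of both lay far apart, 3.93-fold and 2.67-fold lower. FAM162A, a mitochondrial protein, fell 2.93-fold, from 894 ± 134 to 305 ± 23.3. The members called higher were LOXL2 (from 1432 ± 47.7 to 2185 ± 155), a lysyl oxidase like LOX, and the secreted hormone STC2 (from 2293 ± 210.0 to 2689 ± 73.1). Of 26 glycolytic genes tested, many of them HIF targets, 5 were called higher and 16 lower, with a median of -0.18, and 7 higher and 10 lower with library totals. PDK3, which blocks pyruvate entry to mitochondria, fell 2.08-fold and the hexokinase HK2 1.81-fold, whereas the enolase ENO2 rose 2.50-fold.

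Promoters of the hypoxia, cholesterol and YAP lists were searched because the genes of each moved together. The lists were assembled from what was already known of these genes, such as induction by hypoxia or by YAP and TEAD. An excess of the matching word over other promoters can follow from that choice alone, whatever sh1 does. RefSeq promoter windows of 300 bases (250 before and 50 after the start, GRCh38.p14) were found for 26 of the tested hypoxia genes. The core of the HIF-binding element, ACGTG on either strand, stood in 15 of them (57.7%), and in 26.8% of the promoters of 10061 tested genes and 21.6% of all 27305 promoters. All 15 genes with it were called lower, with a median log2 change of -0.72, against -0.46 for those without it. Of the 34 tested members of the list 88.2% were called lower, and of all genes tested 30.0%. Calls in all 15 therefore say little about the element, and the difference in medians was not tested. Each promoter printed here holds 4 matches, in capitals, the most in the list. CACGTG counts as a match on each strand, and other factors bind that word too.
LOX, chr5:122078210-122078509, minus strand: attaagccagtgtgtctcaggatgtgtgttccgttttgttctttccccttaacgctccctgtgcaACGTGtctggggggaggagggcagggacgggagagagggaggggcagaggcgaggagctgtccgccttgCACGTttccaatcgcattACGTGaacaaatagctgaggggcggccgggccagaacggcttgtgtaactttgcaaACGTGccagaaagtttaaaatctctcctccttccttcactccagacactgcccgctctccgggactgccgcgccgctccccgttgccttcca
BHLHE40, chr3:4979187-4979486, plus strand: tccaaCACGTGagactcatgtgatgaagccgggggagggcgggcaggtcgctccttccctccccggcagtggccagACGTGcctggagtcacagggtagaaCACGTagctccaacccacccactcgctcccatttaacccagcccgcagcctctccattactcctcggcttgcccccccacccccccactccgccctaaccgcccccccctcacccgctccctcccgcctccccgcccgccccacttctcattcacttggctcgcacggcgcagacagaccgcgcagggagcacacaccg
BHLHE40, a transcriptional repressor of the circadian clock, fell 1.83-fold, from 6393 ± 622 to 3497 ± 56.4. A match describes the letters of this window and no binding was measured.

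Cholesterol synthesis and sterol regulation fell as a group. Of 28 genes, all tested, 1 was called higher and 23 lower, with a median log2 change of -0.47. INSIG1, which holds back the sterol-sensing transcription factors in the endoplasmic reticulum, had 2246, 2355 and 1894 in the controls and 607, 623 and 603 with sh1, 3.54-fold lower. MSMO1, a sterol C4-demethylase, had 6363, 7018 and 5962 and 2724, 2576 and 2375, 2.52-fold lower. In both, every sh1 library was below every control. SCAP, the escort of the sterol-regulated factors, was the member called higher, from 1038 ± 65.7 to 1295 ± 7.61. The sterol element TCACCCCAC, on either strand, stood in 1 of 21 matched promoters of the list (4.76%), in 0.348% of those of tested genes and in 0.425% of all. That gene, SREBF2, a sterol-regulated factor itself, was called lower, with a log2 change of -0.18, against a median of -0.35 for those without it. Fatty acid synthesis was mixed, and of 20 genes tested 4 were called higher and 10 lower. ACSL1, which activates fatty acids with coenzyme A, and the desaturase SCD fell 2.44-fold and 2.21-fold. ELOVL4, an elongase of very long chains, rose 3.18-fold, from 201 ± 16.8 to 640.0 ± 29.1.

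**Figure D5:**
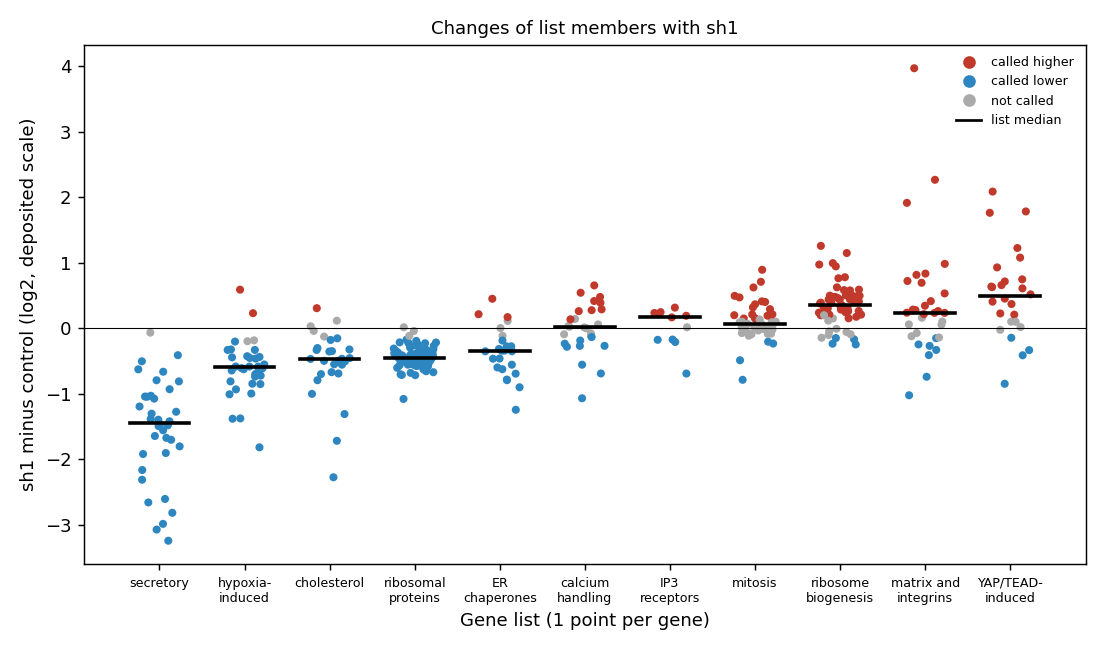
Change of each tested member (sh1 minus control, deposited log2 scale) in 11 gene lists, 1 point per gene, red where called higher, blue where called lower and grey where not called, with a black line at the list median. Secretory genes reach -3.24 and YAP/TEAD-induced genes 2.08, while calcium handling genes lie on both sides of 0.

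Ribosomal proteins and the factors that build ribosomes went opposite ways. Of 80 cytosolic ribosomal protein genes, 79 were tested, 0 were called higher and 76 lower, with a median log2 change of -0.45. Of the 79, 10 fell by at least 1.5-fold, beside 10.1% of all genes tested. RPS26 fell 2.15-fold, from 4195 ± 204 to 1949 ± 60.7, and RPL39 1.66-fold. Processed pseudogenes of this family can share reads. Of 59 ribosome biogenesis factors, all tested, 46 were called higher and 4 lower, median 0.35, and 49 higher and 1 lower with library totals. RRP1B, a nucleolar processing factor, had 1174, 1199.8 and 1548 in the controls and 3159, 3209 and 3185 with sh1. TCOF1, treacle, which supports ribosomal DNA transcription, had 794, 691 and 902 and 1866, 1754 and 1865. Both rose with no overlap, 2.44-fold and 2.30-fold, and RRP12, which exports pre-ribosomes, rose 2.14-fold. Among the factors that fell was the nucleolar chaperone NPM1, from 43926 ± 2418 to 36920.5 ± 1042.

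Of 45 translation factors tested, 8 were called higher and 20 lower, which library totals turned to 15 higher and 16 lower. EEF1G, a subunit of elongation factor 1, and EIF4B, a helper of the cap-binding complex, fell 1.60-fold and 1.56-fold. Mitochondrial ribosomal proteins were called higher in 18 and lower in 18 of 78 cases, and 29 higher and 8 lower with library totals. Nuclear-encoded respiratory chain subunits were lower in 44 of 73 and higher in 9, with a median of -0.20. Library totals gave 14 higher and 28 lower and a median of -0.09, and without control 2 the number higher was 5. NDUFA3 and NDUFA13, accessory subunits of complex I, fell 1.75-fold and 1.65-fold, and CYC1, cytochrome c1 of complex III, rose 1.28-fold.

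YAP and TEAD-induced genes, which respond to cell spreading and tension, were higher in 18 of 26 and lower in 4, with a median of 0.48. Beside CTGF, the clotting initiator tissue factor, F3, had 477, 487 and 478 in the controls and 1737, 1871 and 1804 with sh1, 3.75-fold higher. ANKRD1, a nuclear ankyrin-repeat cofactor, had 43.5, 41.1 and 44.9 and 271, 267 and 264, 6.20-fold higher. In both genes all sh1 libraries lay above all controls. CYR61, the relative of CTGF that is often named with it as a YAP target, went the other way (from 4358 ± 280.2 to 3250.2 ± 39.0), as did the YAP-inhibiting kinase LATS2 (from 481 ± 38.8 to 240.1 ± 8.08). The TEAD-binding word GGAATG, on either strand, stood in 6 of 18 matched promoters of the list (33.3%), in 10.7% of those of tested genes and in 14.05% of all. Of those 6, 4 were called higher and 1, LATS2, lower, beside 69.2% called higher over the tested list. Their median log2 change was 0.53, against 0.42 for the matched members without the word, a difference that was not tested. The ANKRD1 promoter is shown with its 2 matches in capitals.
ANKRD1, chr10:90921038-90921337, minus strand: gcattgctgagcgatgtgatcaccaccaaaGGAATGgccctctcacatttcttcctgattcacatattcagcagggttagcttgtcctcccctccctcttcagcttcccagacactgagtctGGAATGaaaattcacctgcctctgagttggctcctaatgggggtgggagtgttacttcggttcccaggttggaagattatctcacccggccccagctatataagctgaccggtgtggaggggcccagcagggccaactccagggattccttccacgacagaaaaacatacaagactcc

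Matrix and integrin genes were called higher in 19 and lower in 7 of 33 tested out of 46, median 0.23, and 23 higher and 4 lower with library totals. Besides THBS1, TNC and COL5A2, the laminin chain LAMB1 rose 2.01-fold (from 1481 ± 145 to 2979 ± 201), and FN1, fibronectin, rose 1.77-fold. ITGB1, the beta-1 integrin chain, fell 2.05-fold, from 7238 ± 244 to 3525 ± 97.9. Of 34 actin-related genes tested, 17 were called higher and 9 lower, and beside TPM1 and FSCN1 the largest fall was MYL6, a myosin light chain, from 7368 ± 189.6 to 2654 ± 33.7. Of 21 mesenchymal genes 13 were tested, and 7 were called higher and 3 lower. The transcription factors ZEB1, ZEB2, SNAI2 and TWIST1 lay below the level needed for testing, and SNAI1 fell from 87.1 ± 14.5 to 33.0 ± 5.34, MMP2, a gelatinase, from 295 ± 9.65 to 108 ± 1.16.

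Epithelial junction genes and their regulators were lower in 20 and higher in 9 of 37, median -0.23. CLDN1, a sealing claudin of tight junctions, had 4811, 4799 and 4556 in the controls and 1681, 1586 and 1625 with sh1, 2.90-fold lower. The epithelial transcription factors GRHL1 and ELF3 fell 2.29-fold and 1.74-fold. The desmosomal protein PKP3 rose 1.53-fold, and E-cadherin, CDH1, went from 4433 ± 54.0 to 5208 ± 21.9. Keratins were called higher in 6 and lower in 5 of 17 cases (35.3% and 29.4%, beside 29.0% and 30.0% of all genes tested). Library totals gave 7 higher and 1 lower. The number lower was 2 without sh1 library 1 and 3 without sh1 library 2. KRT80 and KRT16 were higher by 1.77-fold and 1.82-fold and KRT19 lower by 1.34-fold.

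Growth signalling genes moved unevenly. Of 29 MAPK feedback and immediate early genes tested, 16 were called higher and 10 lower, median 0.21. FOSL1, the AP-1 subunit Fra-1, rose 5.14-fold, from 24.4 ± 6.30 to 126 ± 16.0, and ETV4, a transcription factor of the ETS family, 2.04-fold. FOS itself fell 3.41-fold, from 282 ± 24.0 to 82.8 ± 12.8, and so did DUSP6, the phosphatase of ERK, from 146 ± 7.28 to 66.6 ± 12.8. Of 16 genes of the EGFR family, 2 were called higher and 6 lower (4 higher and 6 lower with library totals and 4 higher and 8 lower with sample weights), with the inhibitor LRIG1 down 1.58-fold and the receptor ERBB3 1.57-fold.

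Of 46 mitotic genes, 17 were called higher and 4 lower, with a median log2 change of 0.07, and 29 higher and 3 lower with library totals. By at least 1.5-fold, 3 were higher and 1 lower, beside 9.21% and 10.1% of all genes tested. The phosphatases CDC25B and CDC25A rose 1.90-fold and 1.73-fold, and TPX2, a spindle assembly factor, fell 1.74-fold, from 5961 ± 78.9 to 3427 ± 191. Of 51 replication genes, 16 were called higher and 11 lower (31.4% and 21.6%, beside 29.0% and 30.0% of all genes tested). Library totals gave 24 higher and 5 lower. RPA1, which coats single-stranded DNA, was higher by 2.06-fold (1621, 1647 and 1641 in the controls and 3338, 3240.3 and 3552 with sh1). Its partner RPA3 was lower, from 966 ± 51.3 to 804 ± 14.3. Among 16 genes of G1 control 7 were called higher and 5 lower (43.75% and 31.25%). The inhibitor CDKN2B fell 1.74-fold and CDKN2D rose 1.73-fold. Genes induced by p53 were called higher in 10 and lower in 7 of 27 cases, or 37.0% and 25.9% (11 higher and 11 lower with sample weights). The nuclease AEN rose 2.84-fold and the death receptor FAS fell 2.41-fold. Among 28 genes of apoptosis 6 were called higher and 13 lower. CASP14, a caspase of epidermal differentiation, fell from 86769.8 ± 3370.5 to 34566 ± 2319, and CASP1, which processes interleukin 1, from 1807 ± 136 to 918 ± 57.0.

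Endoplasmic reticulum chaperones and genes of the unfolded protein response were lower in 19 of 25 and higher in 3, median -0.35, and 5 higher and 18 lower with library totals. XBP1, the transcription factor of the IRE1 branch, had 9282, 9294 and 9351 in the controls and 4039, 3930.4 and 3699.8 with sh1, 2.39-fold lower and without overlap. DNAJB9 and EDEM1, which act in the disposal of misfolded proteins, fell 2.03-fold and 1.86-fold. Integrated stress response genes were called higher in 8 and lower in 10 of 27 cases, and 12 higher and 6 lower with library totals. Cytosolic heat shock chaperones were called higher in 9 and lower in 7 of 22 cases (40.9% and 31.8%, beside 29.0% and 30.0% of all genes tested). Library totals gave 12 higher and 4 lower. Within this list HSPB1, a small heat shock protein, fell 1.97-fold and CHORDC1, a partner of HSP90, rose 1.68-fold. Of 44 lysosomal and autophagy genes, 8 were called higher and 22 lower, and 14 higher and 17 lower with library totals. The cathepsins CTSS and CTSL fell 2.30-fold and 2.07-fold, and the lysosomal membrane protein LAMP1 rose 2.29-fold (4296, 4368 and 4386 in the controls and 10135, 9289 and 10462 with sh1). Proteasome subunits were called higher in 5 and lower in 8 of 31 cases (16.1% and 25.8%). Library totals gave 13 higher and 6 lower, while the number higher was 10 with sample weights and 9 without control 3.

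Interferon-induced genes were lower in 21 of 37 and higher in 4, median -0.28. SAMD9 and TRIM22, antiviral factors, had 1086 ± 62.9 and 1387 ± 84.3 in the controls and 469.8 ± 56.5 and 612 ± 31.6 with sh1. HERC5, the ligase that attaches ISG15, rose 3.06-fold, from 79.7 ± 4.61 to 244 ± 10.1. NF-kB-related genes were called higher in 6 and lower in 11 of 24 cases (25% and 45.8%, beside 29.0% and 30.0% of all genes tested). SOD2, the mitochondrial superoxide dismutase, and NFKBIZ, a nuclear cofactor of NF-kB, fell 1.80-fold and 1.95-fold, and the subunit RELB rose 1.73-fold. Antigen presentation genes of class I were called higher in 3 and lower in 7 of 15 cases, with TAPBP, the peptide-loading chaperone tapasin, up 1.69-fold. NRF2-induced genes were called higher in 10 and lower in 13 of 27 cases, and 13 higher and 11 lower with library totals. The aldo-keto reductases AKR1C1, AKR1C2 and AKR1C3, whose near-identical sequences can share reads, fell 3.40-fold, 3.08-fold and 4.13-fold, whereas the nuclear protein PIR rose 1.74-fold.

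Carnitine genes other than BBOX1 changed by less than 1.5-fold. Of the 13 tested, BBOX1 included, 5 were called higher and 4 lower. ALDH9A1, which makes the substrate of BBOX1, had 1584, 1581 and 1573 in the controls and 1189, 1186 and 1184 with sh1, 1.33-fold lower. TMLHE, the dioxygenase of the first step, went from 405 ± 5.00 to 322 ± 11.2. SLC22A5, the carnitine importer OCTN2, had 338, 329 and 281 and 433, 472 and 482, 1.46-fold higher, and the brain-type palmitoyltransferase CPT1C rose 1.46-fold. The groups did not overlap for ALDH9A1 or SLC22A5. Fatty acid oxidation genes were called higher in 1 and lower in 7 of 25 cases, and 6 higher and 6 lower with library totals, where the median turned from -0.06 to 0.05. The number higher was 4 with sample weights and 2 with median-centred samples, 0 without control 1, sh1 library 1 or sh1 library 3, and 2 without control 2 or sh1 library 2. HADHB, a subunit of the trifunctional protein, fell 1.502-fold. Tricarboxylic acid cycle genes were called higher in 10 and lower in 8 of 26 cases (38.5% and 30.8%, beside 29.0% and 30.0% of all genes tested). Library totals gave 12 higher and 4 lower. Within this list IDH1, the cytosolic isocitrate dehydrogenase that makes 2-oxoglutarate, fell 2.82-fold (4125, 4680.1 and 4123 in the controls and 1520.1, 1495 and 1572 with sh1).

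IP3 receptors release calcium from the endoplasmic reticulum and are degraded after ubiquitination. ITPR3, the type 3 IP3 receptor, had 3613, 3449 and 4364 in the controls and 2260.3, 2369 and 2329.6 with sh1, 1.64-fold lower (limma, adjusted p = 4.6e-11). All sh1 libraries lay below all controls. ITPR2, the type 2 receptor, went the other way, from 925 ± 73.3 to 1106 ± 53.02. RBCK1, a subunit of the linear ubiquitin ligase, was called lower (from 1209 ± 24.4 to 1062 ± 39.9, limma adjusted p = 0.0291), a call lost without control 1 (0.0912), sh1 library 1 (0.0889) or sh1 library 3 (0.0938), without the mean trend (0.0725) and with library totals (0.378). Its partners RNF31 and SHARPIN were called higher, and over the IP3 receptor and ligase list genes were called higher in 6 and lower in 4 of 11 cases. These counts were 6 higher and 1 lower with library totals, 2 higher and 2 lower without control 1, and 4 higher and 2 lower without sh1 library 1 or sh1 library 3. Of 27 calcium pumps, entry channels and mitochondrial uptake genes tested, 9 were called higher and 9 lower (33.3% each, beside 29.0% and 30.0% of all genes tested). Library totals gave 14 higher and 7 lower. CALM3, a calmodulin gene, fell 2.12-fold, from 5833 ± 60.3 to 2746 ± 146, and RYR1, the ryanodine receptor of muscle, rose 2.03-fold, from 62.3 ± 11.6 to 126 ± 17.2.

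Of 60 other 2-oxoglutarate-dependent dioxygenases tested, 15 were called higher and 18 lower, close to the shares of all genes, and 24 higher and 13 lower with library totals. Apart from P3H2, the histone demethylase KDM4A rose 1.67-fold and the tRNA-modifying enzyme ALKBH8 1.67-fold. P4HA1, the catalytic chain of collagen prolyl 4-hydroxylase, fell 1.71-fold, from 1293 ± 176 to 754 ± 58.5, and TET1, which oxidises methylcytosine, 1.67-fold.

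Genes with the seed site of the sh1 guide were compared with genes without it, as a description. Of 11658 tested genes with a 3′ untranslated region of at least 50 bases, 1484 held the site, with a median log2 change of -0.00, 31.7% called lower and 29.0% higher. The 10174 without it had a median of 0.00, with 30.4% lower and 29.9% higher. The overlapping word GACTTTA, target bases 15 to 21, stood in 1269 genes, with a median of -0.036, 34.0% lower and 29.2% higher. The 10389 without that word had a median of 0.00. Its median was the lowest among 15 words taken along the target. TACCTTT, target bases 5 to 11 and outside the seed site, came close, with -0.034 and 34.5% lower. These differences were not tested. Among the largest rises, CCND1 and KCTD12 each held 1 seed site in the 3′ untranslated region. Among the largest falls, TF held 3, in an annotated region of 18020 bases, and CP and LCN2 each held 1 in the coding sequence. The sites of the 3′ untranslated regions are shown in capitals with their surroundings, in the same 21-base frame as the target above.
CCND1 site: ttgtttgcaagcaGGACTTTg
KCTD12 site: agtgaatgacattGGACTTTt
TF site 1: tcctgtaatcccaGGACTTTg
TF site 2: gggccatcctgaaGGACTTTt
TF site 3: cagcaaaacttctGGACTTTg
The CCND1 and KCTD12 sites matched the sh1 target at 9 and 10 of 21 bases, and the TF sites at 9, 11 and 13.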

How the data were processed

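The table deposited by the authors lists 27315 gene symbols, each with log2-scale values in 9 libraries, made by a variance-stabilising transformation, and its name calls the values batch-corrected. A log2 fold change and an adjusted p-value that the authors deposited beside them, for a comparison they do not name, were not used. The submitters' processing notes list hg19, cutadapt, STAR, Salmon and DESeq2 without versions or settings. The treatment of strand is not stated there, so overlapping antisense genes cannot be told apart.

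The transformation was inverted in closed form (floor 5.02) to normalised counts, of which 76.7% to 80.4% of low values per library were whole reads within 0.05, once divided by the worth of 1 read. Recovered totals were 15725934 to 19716797 reads. Folds and means use these counts, and log2 changes use the deposited values. The test was limma 3.58.1 in R 4.3.3 with a mean trend, two-sided, on all 9 libraries in 1 model of 3 groups with 6 residual degrees of freedom, adjusted by Benjamini-Hochberg over 13165 genes. It was also run on simulated counts with independent libraries, the same dispersion for every gene and far fewer changed genes. These data differ in each respect, so that run does not vouch for the calls here.

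The text names BBOX1, the 15 largest rises and falls among called genes whose groups do not overlap and whose mean exceeds the floor by 2 or more (leaving out clones, pseudogenes and similar symbols), and up to 3 called members each way of each of 44 lists, besides members given beside these. Some genes the rule names are not reported here. Members and lists were chosen with earlier results of these data known. Promoters are RefSeq's (GRCh38.p14) and transcripts GENCODE's, both another build than the authors' hg19. Alternatives were other scalings, filters, priors, weights, a stricter threshold, a replicate block and leaving out each library.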

Additional observations from a re-analysis of the deposited data

Results flagged for a closer look

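For 2 of the 30 genes with the largest changes under sh1, the mean with sh6 lay on the other side of the control mean, and the difference between the hairpins passed the test. NPR3, the clearance receptor of natriuretic peptides, was at 72.8 ± 10.3 (SD, n = 3) in the controls, 476 ± 12.3 with sh1 and 42.7 ± 3.32 with sh6. Its sh6 minus sh1 difference was -2.48 on the log2 scale (limma, adjusted p = 1.1e-20), and all 3 sh6 libraries lay below all 3 controls. LCN2, lipocalin 2, was at 11978 ± 389 in the controls, 2623 ± 153 with sh1 and 12292 ± 960 with sh6. Its sh6 minus sh1 difference was 2.20 (limma, adjusted p = 6.1e-24), with sh6 libraries on both sides of the controls.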

How the results depend on the processing

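Of the 242 genes that the naming rule picks, 0 changed direction under any other setting run, and 230 kept their call in each setting that tested them. Of the other 12, the text names RBCK1. The rule takes only called genes, the largest changes first, from these same libraries, so this stability was largely set by the choice of genes. BBOX1 ran from -2.83 to -2.71 when 1 library was left out. Leaving out 1 library gave 6995 to 8019 calls, 3388 to 3932 of them higher and 3585 to 4087 lower, 2426 to 2724 of at least 1.5-fold, and 26 to 29 of the 30 largest changes differing between the hairpins. A fold taken on the deposited scale, chosen after seeing the data, left 1640 of at least 1.5-fold, by construction, since that scale compresses low genes. With library totals 7 named genes lost their call and 26 counts of list members moved by over 1.5 times, while the secretory (0 higher, 35 lower), hypoxia (2 and 29), cholesterol (2 and 21), ribosomal protein (1 and 69), ribosome biogenesis (49 and 1) and YAP (20 and 3) lists kept their direction. Recovered reads under the deposited scaling gave 3817 higher and 3929 lower. The replicate block gave 7950 calls. Same-numbered control and sh1 libraries deviated with r of 0.0137, 0.0786 and 0.176 across genes. Controls 2 and 3 correlated best with the sh1 library of their own number, and control 1 with sh1 library 2 (0.0546). The main model did not take the numbers as pairs, and the replicate block is the fit that uses them. Depth limits genes near the floor, where 1 read is a large share of a value.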

Other observations

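Genes with GC-rich transcripts tended to be higher with sh1. Among 12682 of 13165 tested genes matched to a transcript (96.3%), the quintile with the lowest GC had a median log2 change of -0.08, with 39.5% called lower and 20.5% higher. The quintile with the highest GC had a median of 0.09, with 37.7% higher and 22.0% lower. In the quintile with the shortest transcripts 21.2% were higher and 35.3% lower. Among the most abundant quintile by mean level 26.5% were higher and 41.3% lower. By chromosome, 16 and 19 had the largest shares called higher (35.1% and 34.7%), and 4 the smallest (22.5%, with 37.0% lower). These are descriptions across genes, which are not independent, and no test was made.

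The protocol states a target named sh2 and the libraries are named sh6, and no label joins them, so the side-by-side values of sh6 are given without its sequence.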
